A study of Mus musculus with 16 samples.

Results

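The transcription factors described here are 9 genes used as markers of mesenchymal and stromal progenitors: Ebf1, Ebf2, Ebf3, Foxc1, Prrx1, Prrx2, Twist1, Twist2 and Snai2. They were chosen by symbol, and all 9 were present among the 20056 genes of the deposited expression table. Poly(A) RNA was sequenced from osteoblasts (OB) and mesenchymal stem cells (MSC) sorted from miR-9-1-deficient mice, made by CRISPR/Cas9 editing, and from wild-type mice. There were 4 libraries in each of the 4 groups: deficient OB, wild-type OB, deficient MSC and wild-type MSC. The animal numbers in the labels are the same in both sorts. Letters E to H stand for the deficient and A to D for the wild-type animals, and 1 letter names the OB and the MSC library that carry 1 animal number. The labels give no sex, age, strain, treatment or sort gate, and do not say which copy or part of the miR-9-1 locus was edited or whether deficient mice carry 1 or both edited alleles. The study set out to examine miR-9-1 in the bone marrow niche that supports lymphocyte formation.

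The Ebf proteins are early B-cell factors. Ebf1 is also a master regulator of B-lymphocyte development, while Ebf1 and Ebf3 are known in marrow reticular stroma, where Ebf3 keeps the marrow cavity free of bone. Foxc1 is a forkhead factor required to maintain Cxcl12-abundant reticular cells and the stem cell niche. Prrx1 and Prrx2 are paired-related homeobox factors of limb and skeletal mesenchyme, Twist1 and Twist2 are basic helix-loop-helix factors that restrain Runx2 in osteoblast precursors, and Snai2 is a zinc finger repressor known from epithelial-mesenchymal transition.

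The mature microRNA from the edited locus is shown because its seed, bases 2 to 8 in capitals, defines the matches searched in the 9 transcripts. The sequence is from RefSeq (GRCm38.p6), at chr3:88215613-88215635 on the + strand, and Mir9-2 and Mir9-3 encode the same mature sequence.
mmu-miR-9-5p: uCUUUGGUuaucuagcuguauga

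Matches to the seed were sought on the sense strand of each gene's longest 3′ UTR as annotated (GENCODE M21, GRCm38/mm10). They were ACCAAAGA (an 8mer), ACCAAAG (7mer-m8) and CCAAAGA (7mer-A1), each position counted once under the longest form. Of the 9 genes, 3 held a match: Prrx1 held 3, of which 2 were 8mers, Snai2 held 2 and Ebf1 held 1. Of the 16789 genes of the table with an annotated 3′ UTR, 23.7% held at least 1 match and 4.76% at least 1 8mer. Among the UTRs of 2698 bases or more, the median length of the 9, 51.9% held at least 1. Each match is shown with its flanks, 5′ to 3′ on the transcribed strand, with the match in capitals. The matches lay at chr1:163256003-163256010, chr1:163253306-163253312 and chr1:163253064-163253071 (Prrx1, − strand), chr16:14708366-14708372 and chr16:14708713-14708719 (Snai2, + strand) and chr11:45007580-45007586 (Ebf1, + strand).
Prrx1 8mer, proximal: aggcaatctgaACCAAAGAgacatgcccca
Prrx1 7mer-m8: aagcgataggaACCAAAGccttaccaatga
Prrx1 8mer, distal: caagacgacaaACCAAAGAgatggcctctg
Snai2 7mer-A1: caaatgaaagtCCAAAGAcattttctcatg
Snai2 7mer-m8: aaaccatttcaACCAAAGgaacagtatttc
Ebf1 7mer-A1: tactggaaagcCCAAAGAgcctttaaaaag
The Prrx1 and Ebf1 matches lay in 1 of the 3 annotated transcripts with a 3′ UTR of each gene, and those of Snai2 in its 1 such transcript. Which isoform the libraries hold was not measured. A match is a run of letters and was not tested as a binding site.

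**Figure D1:**
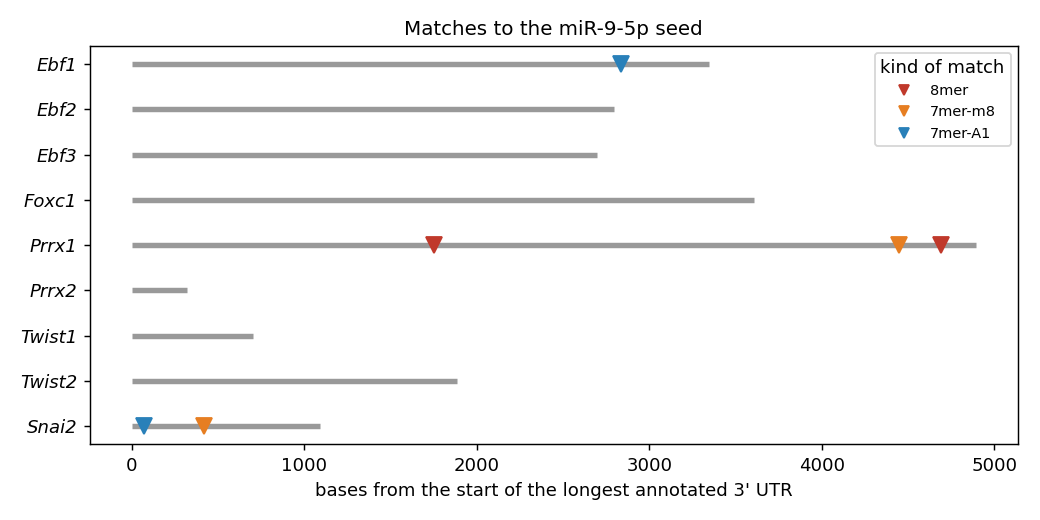
Matches to the miR-9-5p seed (triangles, coloured by kind) along each gene's longest annotated 3′ UTR (grey lines, in bases from the UTR start). Prrx1 has the longest UTR, 4891 bases, and 3 matches, while Foxc1, Ebf2, Ebf3, Prrx2, Twist1 and Twist2 have none.

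Recovered depth was 15543693 to 18962771 reads in OB libraries and 10148197 to 14246986 in MSC libraries. Mir9-1 itself was near the limit of detection: 3 of 4 deficient OB libraries had 0 reads and the other had 3, against 0, 4, 7 and 16 reads in wild-type OB libraries, and all 8 MSC libraries had 0, which allows up to 3 reads in each. These are reads of poly(A) RNA, and the mature microRNA was not measured in either genotype. In MSC libraries, Xist and the Y-linked gene Ddx3y split the animals cleanly, with mice E, F and A low in Xist (291 to 392.1 normalized counts) and the other 5 high. All 8 OB libraries held both Xist (3719.5 to 8053) and Ddx3y (649 to 1939), so RNA of an OB library may not come from 1 mouse and the independence of these libraries is not established. A list of 13 osteoblast markers was lower in OB than in MSC libraries of the same genotype, with a mean log2(normalized count + 1) of 7.11 to 9.43 in deficient OB against 9.62 to 10.43 in deficient MSC libraries, and of 9.97 to 10.68 in wild-type OB against 11.08 to 11.27 in wild-type MSC libraries. All 10 blood progenitor and all 10 erythroid markers were higher in OB than in MSC libraries, in both genotypes, at an adjusted p under 0.05 (limma). The names OB and MSC are therefore used as labels of the sorts.

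Values are normalized counts, as mean ± SD over 4 libraries where a mean is given. Log2 fold changes are on the log2(value + 1) scale with their standard error. Adjusted p-values are Benjamini-Hochberg values over all genes of a limma fit, and a gene passed at an adjusted p under 0.05. In these bulk libraries fewer cells of a type and less RNA per cell cannot be told apart.

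All 9 factors were detected in all 16 libraries, and their levels spanned a wide range. Not divided by length, Prrx1 had the highest mean in deficient MSC (4080), wild-type MSC (7348) and wild-type OB libraries (549). In deficient OB libraries Foxc1 did (696). Twist1 averaged 1629, 1663, 217 and 248 in the same order. The order per kb depends on merged exons of all annotated isoforms, 11066 bases for Prrx1 and 1628 for Twist1. Which isoforms were present was not measured. Divided by the length of the gene's merged exons, Twist1 had the highest level in every group, at 1001 ± 277 normalized counts per kb in deficient MSC and 1021 ± 120 in wild-type MSC libraries. In deficient MSC libraries Foxc1 came next (554 ± 109.6 per kb), above Prrx1 (369 ± 107.5), although the ranges of the 2 overlapped, and Prrx2 (269.8 ± 255) covered the range of its neighbours. In wild-type MSC libraries Twist1 was followed by Prrx1 (664 ± 35.2 per kb), Prrx2 (519 ± 60.5), Foxc1 (437 ± 38.7), Ebf1 (199 ± 41.2), Snai2 (193 ± 46.9), Ebf3 (127 ± 53.6), Ebf2 (83.8 ± 22.2) and Twist2 (29.7 ± 8.20). Of the neighbours in this order, Prrx2 and Foxc1 overlapped, as did Ebf1 and Snai2, Snai2 and Ebf3, and Ebf3 and Ebf2. In deficient OB libraries every neighbour in the order overlapped the next. In wild-type OB libraries the order opened with Twist1 (134 ± 50.1 per kb), Foxc1 (70.1 ± 10.2) and Prrx1 (49.6 ± 1.22) and ended, as in MSC libraries, with Ebf2 (4.97 ± 1.00) and Twist2 (3.58 ± 0.652).

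**Figure D2:**
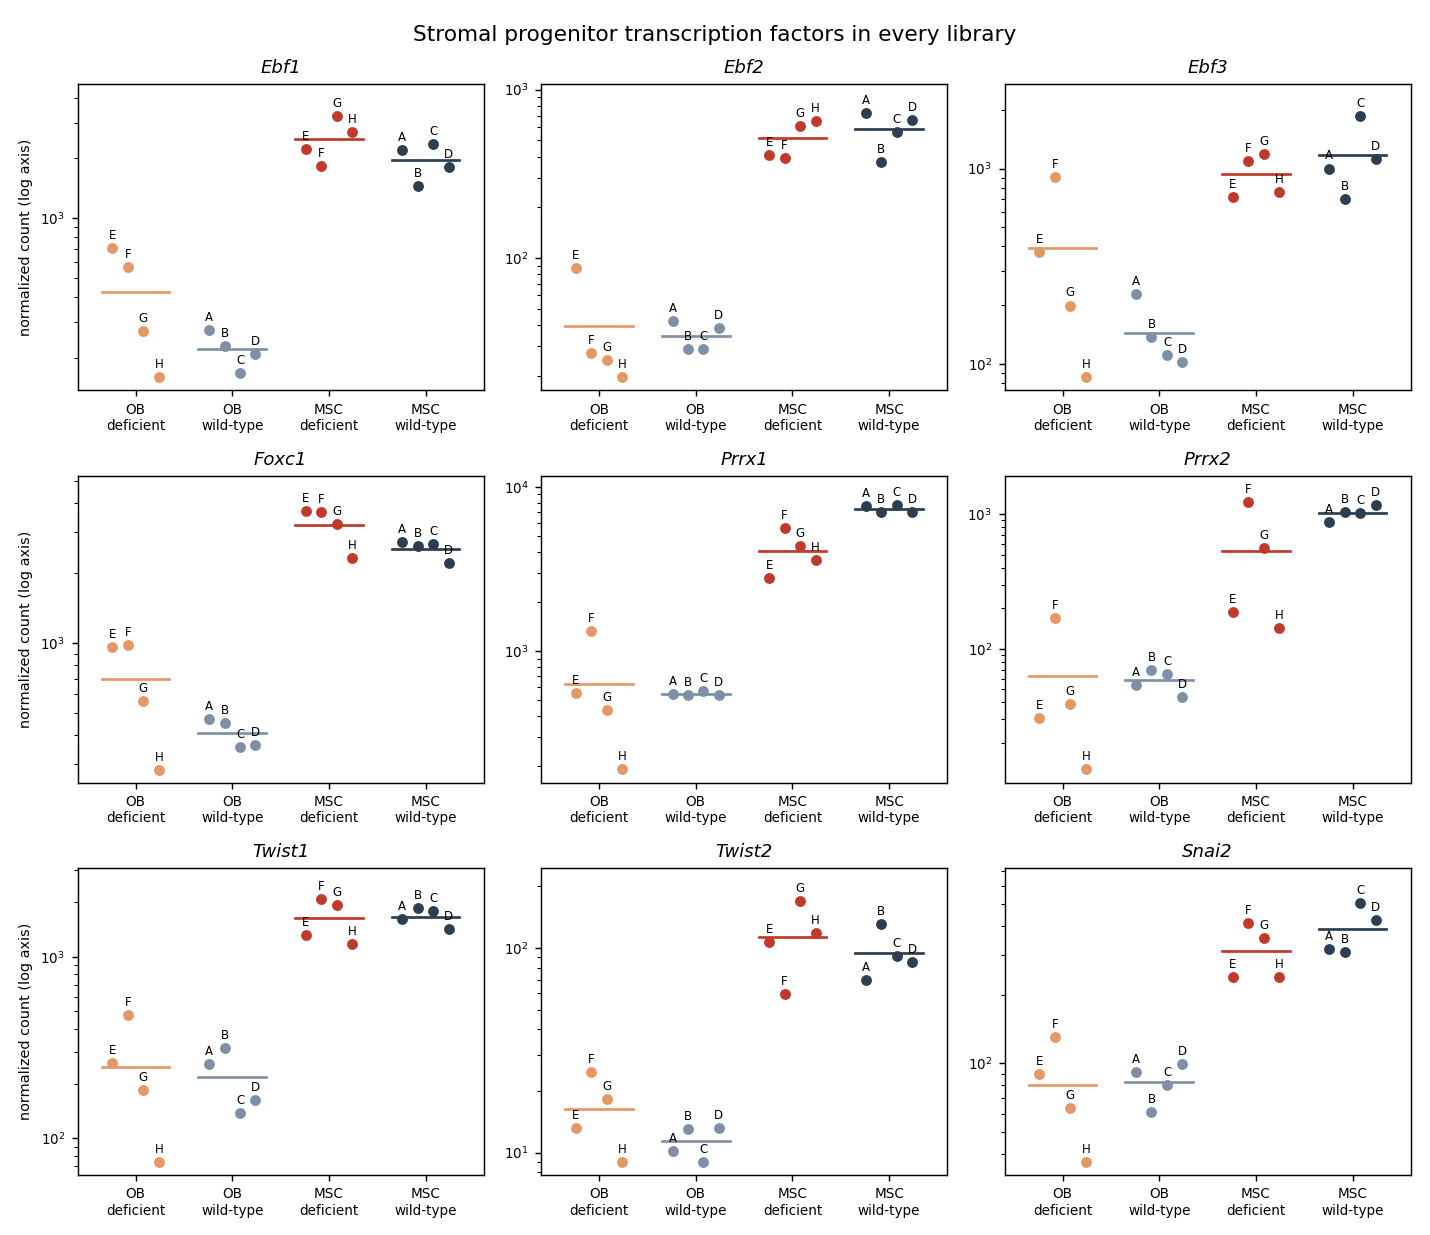
Normalized count (log axis) of each of the 9 factors in every library, lettered by mouse, with deficient left of wild-type and OB left of MSC; lines are group means. Prrx1 is the only factor whose deficient MSC libraries (2785 to 5576) all lie below the wild-type MSC libraries (6992 to 7748), and mouse H is the lowest deficient OB library in all 9 panels.

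Within MSC, deficient against wild-type libraries, Prrx1 and Prrx2 had the lowest fold changes of the 9 and no factor passed the threshold in limma. Prrx1 averaged 4080 ± 1190 in deficient and 7348 ± 389.6 in wild-type MSC libraries, and Prrx2 529 ± 500.5 and 1018 ± 119 in the same order of genotype. By limma 0 of the 9 passed, beside 1.06% of the 14964 genes tested, and 2 of the 9 had an unadjusted p under 0.05, beside 22.8% of genes. edgeR also called 0 of 9, beside 147 of the 14964 genes, and DESeq2 called 1, Prrx1, beside 1199 of them.

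Prrx1 (chr1:163245119-163313710, − strand), a homeobox factor of limb and craniofacial mesenchyme, had 2785, 5576, 4372 and 3584 normalized counts in deficient MSC libraries (mice E to H), against 7615, 6992, 7748 and 7036 in wild-type MSC libraries (mice A to D). Every deficient library lay below every wild-type one. Prrx1 was the 1 factor of 9 without overlap between genotypes, beside 12.4% of genes tested, or 6.1% counting lower values only. The highest deficient library was 2.002 times the lowest, while the wild-type libraries were tightly grouped, with the highest 1.11 times the lowest. The fold change was −0.89 ± 0.19 with a limma adjusted p of 0.0537, rank 182 of all genes by p. It passed with quantile normalization (−0.95, limma adjusted p = 0.0444), with array weights (−0.85, 0.00796), without mouse F (−1.06, 0.00303) and in DESeq2 (−0.83, 0.00242), and over all alternatives the adjusted p ran from 0.00242 to 0.907. In the same order, these settings called 197, 1714, 2261 and 1199 genes, of 14775 tested without mouse F and 14964 in the others. Split by Xist, deficient libraries had 3584 to 4372 against 6992 to 7748 in wild-type libraries among the high-Xist mice, and 2785 to 5576 against 7615 in the single wild-type library among the low-Xist mice.

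Its paralog Prrx2 (chr2:30834972-30881251, + strand), which acts with Prrx1 in skeletal patterning, had 188, 1226, 559 and 143 normalized counts in deficient MSC libraries and 869, 1029, 1014 and 1159 in wild-type MSC libraries. Mouse F was the highest of all 8 libraries, while the other 3 deficient libraries lay below every wild-type one. The fold change was −1.45 ± 0.54 (limma adjusted p = 0.151, unadjusted p = 0.0207). Leaving out mouse F, it was −2.03 (limma adjusted p = 0.00702), in a fit that called 2261 of 14775 genes. Without each of the other libraries it lay between −1.65 and −1.001 and did not pass, the value nearest 0 being that without mouse H (limma adjusted p = 0.298). It was −0.93 in edgeR (adjusted p = 0.337) and in DESeq2 (adjusted p = 0.406).

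Foxc1 (chr13:31806633-31812476, + strand), the niche forkhead factor, had 3701, 3673, 3249.6 and 2329 normalized counts in deficient MSC libraries against 2716, 2620.4, 2661 and 2219.6 in wild-type MSC libraries. Of the deficient libraries 3 were above every wild-type one and mouse H was among them, so the groups overlapped. The fold change was 0.32 ± 0.16 (limma adjusted p = 0.261).

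Ebf1 (chr11:44617317-45008091, + strand) had 2214, 1811, 3231 and 2681 normalized counts in deficient MSC libraries against 2174, 1447, 2344 and 1788 in wild-type MSC libraries. Mice G and H were above all wild-type libraries and mice E and F were among them, with a fold change of 0.35 ± 0.20 (limma adjusted p = 0.327). A list of 18 B-lineage markers, of interest here because Ebf1 is also a B-cell gene, ran the other way, from 3.31 to 4.32 in mean log2(normalized count + 1) in deficient and from 5.28 to 6.29 in wild-type MSC libraries; 14 of its 15 tested genes had a negative fold change, 4 of them past the threshold, and its summed level was 488 to 729 against 1346 to 2685. Its pre-B-cell receptor genes Vpreb1 and Vpreb2 were both at 0 in all 4 deficient MSC libraries, and in 1 and 3 of the 4 wild-type MSC libraries.

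The other Ebf members differed by less than the spread between libraries. Ebf2 (chr14:67233292-67430918, + strand), known from osteoblast and brown fat precursors, ranged from 391.8 to 650.2 in deficient and from 373 to 724 in wild-type MSC libraries, with a fold change of −0.17 ± 0.24 (limma adjusted p = 0.714). Ebf3 (chr7:137193673-137314445, − strand) ranged from 716 to 1182 in deficient and from 699 to 1863 in wild-type MSC libraries, with a fold change of −0.26 ± 0.27 (limma adjusted p = 0.598).

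Neither Twist gene nor Snai2 separated the genotypes in MSC libraries. Twist1 (chr12:33957671-33959829, + strand) ranged from 1173 to 2088 in deficient and from 1414 to 1855 in wild-type MSC libraries (fold change −0.06 ± 0.19, limma adjusted p = 0.866). Twist2 (chr1:91801461-91848028, + strand) ranged from 59.3 to 169.9 in deficient and from 69.4 to 131 in wild-type MSC libraries (0.21 ± 0.36, limma adjusted p = 0.763). Snai2 (chr16:14705852-14709385, + strand) ranged from 239.6 to 414 in deficient and from 309 to 508 in wild-type MSC libraries (−0.33 ± 0.24, limma adjusted p = 0.435). The 95% intervals of the 3 fold changes were −0.49 to 0.36, −0.58 to 1.00 and −0.86 to 0.20, in that order.

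Over the 9 factors the median fold change in MSC libraries was −0.17, beside −0.03 over all genes tested, and 6 of 9 were negative, as were 7881 of 14964 genes. The marrow stroma list (16 markers, among them Lepr, Cxcl12 and Kitl) ran from 10.55 to 11.33 in mean log2(normalized count + 1) in deficient and from 11.12 to 11.85 in wild-type MSC libraries, with no marker at 0. The skeletal muscle list ran from 3.75 to 7.61 in deficient and from 3.10 to 5.06 in wild-type MSC libraries, with up to 2 of its 11 markers at 0 in a deficient and up to 4 in a wild-type library. With the stroma list as a covariate the fold change of Prrx1 was −0.74 (limma adjusted p = 0.266) and of Prrx2 −0.82 (0.516), and with the muscle list they were −0.90 (0.162) and −1.08 (0.410). Other lists had no overlap between genotypes in MSC libraries. Besides the B-lineage list these included the chondrocyte list (9.05 to 10.87 in deficient and 11.38 to 13.60 in wild-type MSC libraries, 9 of 9 tested genes negative). They also included the tendon fibroblast list (10.39 to 11.58 and 11.62 to 12.23, 8 of 10 negative) and the blood progenitor list (7.98 to 8.22 and 8.32 to 8.41, 8 of 10 negative). The osteoblast list given above was separate as well (10 of 12 negative). Their parts and that of genotype cannot be told apart.

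**Figure D3:**
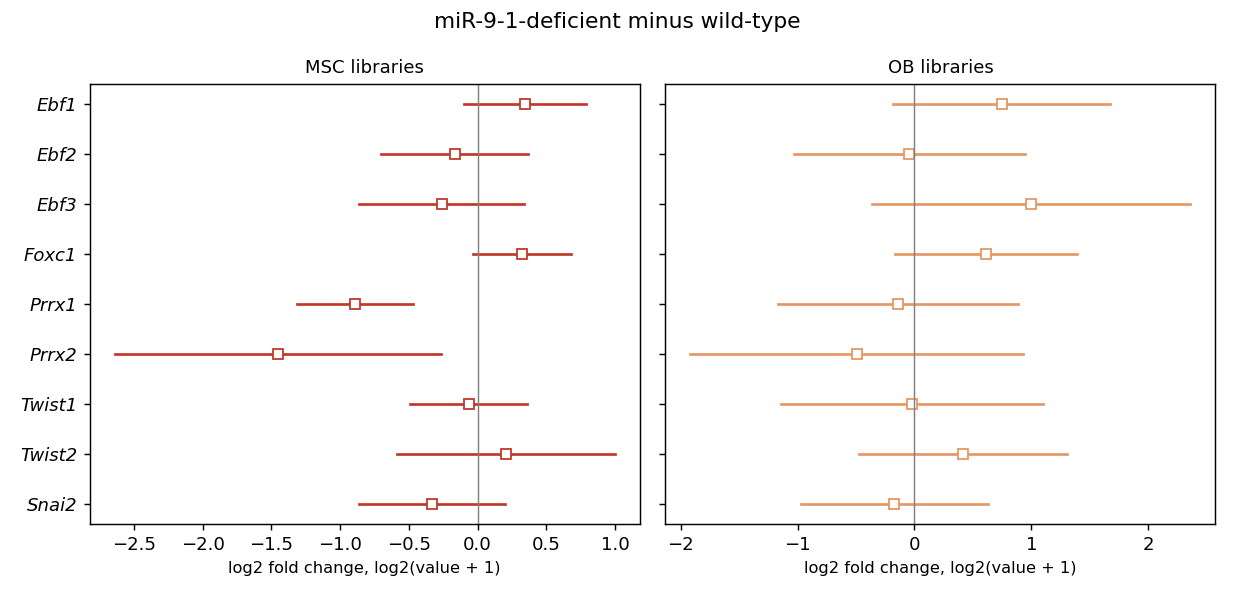
Log2 fold change of each factor, deficient minus wild-type, on the log2(value + 1) scale, in MSC libraries (left) and OB libraries (right). Squares are estimates, open because none passed an adjusted p under 0.05, and lines are 95% intervals; in MSC libraries the intervals of Prrx1 (−1.32 to −0.47) and Prrx2 (−2.64 to −0.27) lie below 0, and in OB libraries every interval spans 0.

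Within OB, deficient against wild-type libraries, no factor passed, and the deficient libraries were the more widely spread for all 9: the highest was 2.74 to 13.3 times the lowest in deficient OB libraries, against 1.06 to 2.27 times in wild-type OB libraries. By limma 0 of 9 passed, beside 0.0281% of the 14229 genes tested, 0 of 9 had an unadjusted p under 0.05, beside 8.95% of genes, edgeR called 0 of 9, and DESeq2 called 0 of the 8 to which it gave an adjusted p, Twist2 having none. In 0 of 9 were the groups without overlap, beside 5.47% of genes. The adjusted p-values ran from 0.625 to 0.993.

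Ebf1 had 709.7, 571, 273 and 159 normalized counts in deficient OB libraries (mice E to H), against 276, 228, 168 and 209 in wild-type OB libraries (mice A to D). Mice E and F lay above every wild-type library and mouse H below all of them, with a fold change of 0.75 ± 0.42 (limma adjusted p = 0.625). Foxc1 had 958, 982, 560.0 and 284 in deficient against 471, 451, 355 and 362 in wild-type OB libraries. Mice E, F and G lay above every wild-type library and mouse H below, with a fold change of 0.61 ± 0.35 (limma adjusted p = 0.628). Ebf3 had 376, 901, 199.6 and 85.7 in deficient against 228, 137, 112 and 103 in wild-type OB libraries. Mice E and F lay above the wild-type libraries and mouse H below, the deficient libraries differed by up to 10.5 times, and the fold change was 1.00 ± 0.61 (limma adjusted p = 0.651).

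Prrx1, the factor with separate genotypes in MSC libraries, had 555, 1331, 438 and 190.2 in deficient OB libraries against 548, 543, 569 and 538 in wild-type OB libraries. The deficient libraries differed by up to 7.001 times and the wild-type ones by at most 1.06 times, with mouse F above, mouse E among, and mice G and H below the wild-type libraries. The fold change was −0.14 ± 0.46 (limma adjusted p = 0.947). Prrx2 had 30.9, 170.0, 38.7 and 12.8 in deficient OB libraries against 54.2, 70.2, 64.8 and 44.0 in wild-type OB libraries, so that mouse F was above and the other 3 below every wild-type library. Its fold change was −0.49 ± 0.64 (limma adjusted p = 0.842).

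Ebf2 had 86.7, 27.4, 24.9 and 19.5 in deficient against 42.4, 28.6, 28.6 and 38.2 in wild-type OB libraries, with mouse E alone above the wild-type range and the other 3 below it. Twist1 ranged from 74.4 to 477 in deficient and from 138 to 313 in wild-type OB libraries, and Twist2 from 9.02 to 24.8 and from 9.04 to 13.2. Snai2 ranged from 36.8 to 130.3 in deficient and from 61.1 to 99.1 in wild-type OB libraries. For Ebf2, Twist1 and Snai2 the deficient range thus reached both above and below the wild-type range. For Twist2 it reached above, while the lowest library of each genotype held 12 reads. The limma adjusted p-values of these 4 genes were 0.778 or more.

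Among deficient OB libraries mouse H had the lowest value of all 9 factors, and the highest was in mouse F for 7 and in mouse E for Ebf1 and Ebf2. The mean log2(normalized count + 1) over the 9 was 7.43, 8.02, 6.83 and 5.83 in deficient OB libraries (mice E to H) and 7.02, 6.88, 6.62 and 6.73 in wild-type OB libraries (mice A to D). The marrow stroma list had 10.12, 10.84, 9.11 and 7.87 in the deficient and 9.25, 8.90, 8.65 and 8.35 in the wild-type OB libraries. The 2 measures put the deficient OB libraries in the same order, F, E, G and H, and no stroma marker was at 0 in any library. In wild-type OB libraries the order was A, B, D and C for the factors and A, B, C and D for the list. The orders also differed in deficient and in wild-type MSC libraries. The osteoblast list given above had no overlap between genotypes in OB libraries and was lower in deficient ones, as were the chondrocyte list (10.57 to 11.64 in deficient and 12.35 to 13.89 in wild-type OB libraries) and the tendon fibroblast list (6.83 to 8.695 and 8.89 to 9.46). Their part in the values of the 9 factors was not tested. With the stroma list as a covariate the fold change of Prrx1 was −0.69 (limma adjusted p = 0.143), and no factor passed. Without mice E and F, a choice made after seeing the data that leaves 2 deficient libraries, the fold changes were −0.06 for Ebf1, −0.07 for Ebf3, −0.03 for Foxc1, −0.93 for Prrx1 and −1.32 for Prrx2, and again none passed.

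**Figure D4:**
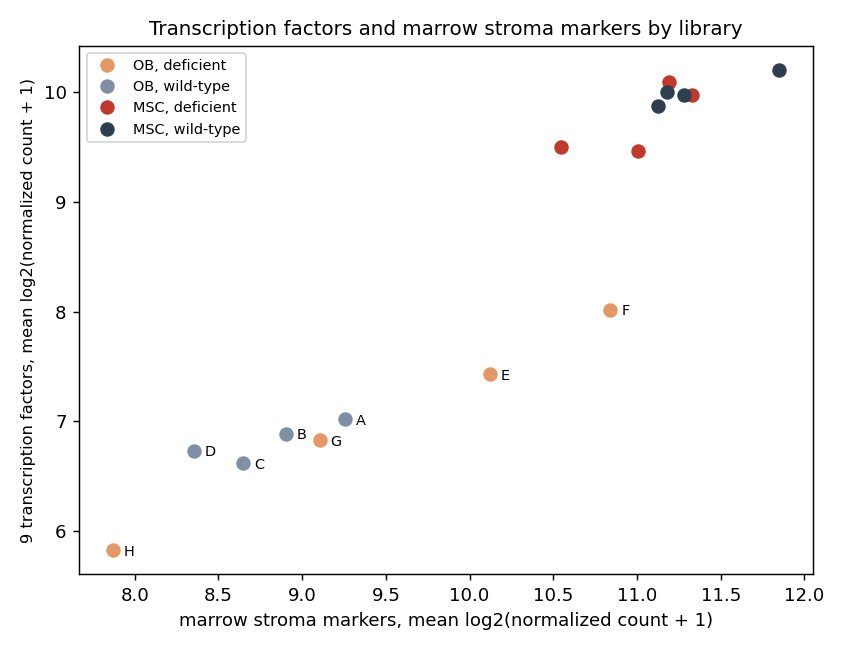
Mean log2(normalized count + 1) of the 9 factors (y axis) against that of the 16 marrow stroma markers (x axis) in each of the 16 libraries, with OB libraries lettered by mouse. Deficient OB libraries span 5.83 to 8.02 on the y axis and 7.87 to 10.84 on the x axis, wider than the 4 wild-type OB libraries.

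The difference between the genotype effects in OB and in MSC libraries was above 0 for 9 of 9 factors and passed for 0 of 9 in limma, beside 0.0129% of the 15556 genes tested. None had an unadjusted p under 0.05, beside 11.5% of genes, and edgeR and DESeq2 called 0 of 9. The values ran from 0.04 (Twist1) to 1.26 ± 0.72 (Ebf3, limma adjusted p = 0.517), with Prrx2 at 0.96 ± 0.92 and Prrx1 at 0.75 ± 0.53. The median over the 9 was 0.29, beside 0.04 over all genes tested, of which 7233 were below 0. Values above 0 were not particular to the factors. Below 0 were 0 of 16 marrow stroma genes (median 1.16) and 1 of 11 mural genes (0.90). In the osteoblast list 9 of 12 tested genes were below 0 (−0.53), and in the tendon fibroblast list 6 of 10 (−0.38). The genotype effect is thus not shown to differ between the sorts for any factor.

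Between the sorts, all 9 factors were lower in OB than in MSC libraries, in both genotypes. In deficient libraries 9 of 9 passed as lower, beside 30.6% of the 14692 genes tested in that direction, and 7 of 9 were lower with no overlap between sorts, beside 27.1% of genes. The median difference over the 9 was −2.73, beside −0.02 over all genes tested. In wild-type libraries 9 of 9 passed as lower, beside 35.5% of 14696 genes, and 9 of 9 had no overlap, beside 32.9%. The median was −2.999, beside 0.01 over all genes tested. The 2 comparisons share no library.

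Prrx1 averaged 628 ± 493 in deficient OB and 4080 ± 1190 in deficient MSC libraries, a difference of −2.98 ± 0.49 (limma adjusted p = 0.00071). In wild-type libraries it averaged 549 ± 13.5 in OB and 7348 ± 389.6 in MSC, a difference of −3.74 ± 0.07, which had the smallest p of all 14696 genes (limma adjusted p = 2.49e-10). OB libraries thus held 7.91-fold less Prrx1 than MSC libraries in deficient mice and 13.3-fold less in wild-type mice, on the log2(value + 1) scale. The smallest p goes with wild-type OB values of Prrx1 that differed by at most 1.06 times. The independence of the OB libraries is not established. Prrx2 differed by −3.15 ± 0.84 in deficient and −4.12 ± 0.17 in wild-type libraries, the lowest value of the 9 in wild-type libraries, and its deficient sorts overlapped because the 170.0 of OB mouse F exceeded the 143 of MSC mouse H.

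The Ebf genes did not share 1 size of difference. Ebf2 differed by −3.89 ± 0.43 in deficient and −4.01 ± 0.25 in wild-type libraries, and Ebf1 by −2.73 ± 0.43 and −3.13 ± 0.18 in the same order of genotype. Ebf3 differed by −1.72 ± 0.59 in deficient libraries (limma adjusted p = 0.0298) and by −2.99 ± 0.31 in wild-type libraries. In the deficient libraries the 901 of OB mouse F lay above the 716 and 758 of MSC mice E and H. The call in deficient libraries was lost in edgeR (−1.20, adjusted p = 0.101), without MSC mouse F (limma adjusted p = 0.0629) or G (0.0751) and without OB mouse G (0.0776) or H (0.0505).

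Foxc1 differed by −2.35 ± 0.36 in deficient and −2.64 ± 0.11 in wild-type libraries. Twist1 differed by −2.96 ± 0.48 and −2.999 ± 0.23, and Twist2 by −2.72 ± 0.43 and −2.93 ± 0.35, deficient first in both. Snai2 had the smallest difference in wild-type libraries, −2.21 ± 0.22, with −2.05 ± 0.38 in deficient libraries. The marrow stroma list moved with these differences: 8 of its 16 markers were lower and 1 higher in OB than in MSC among deficient libraries, and 15 were lower and 1, Angpt1, higher among wild-type libraries. Its median difference was −1.72 in deficient and −2.78 in wild-type libraries. The mural list was lower in OB for 9 of 11 genes in deficient and 11 of 11 in wild-type libraries, with medians of −2.30 and −3.37. The tendon fibroblast list was lower for 9 of 10 genes in both genotypes, with medians of −2.74 and −2.70, and the neutrophil list for 8 of 11 in both, with medians of −3.04 and −2.98. Those of the 9 factors were −2.73 and −2.999. Not every list was lower: in both genotypes 5 of 9 chondrocyte genes were higher in OB, with medians of 1.39 in deficient and 1.60 in wild-type libraries. Of the chondrocyte genes 2 were lower in deficient and 1 in wild-type libraries. The endothelial list had 5 of 10 genes higher and 1 lower in both genotypes. The osteoblast, blood progenitor and erythroid lists, given above, also differed between the sorts. The part of cell makeup in the differences of the 9 factors was not tested.

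**Figure D5:**
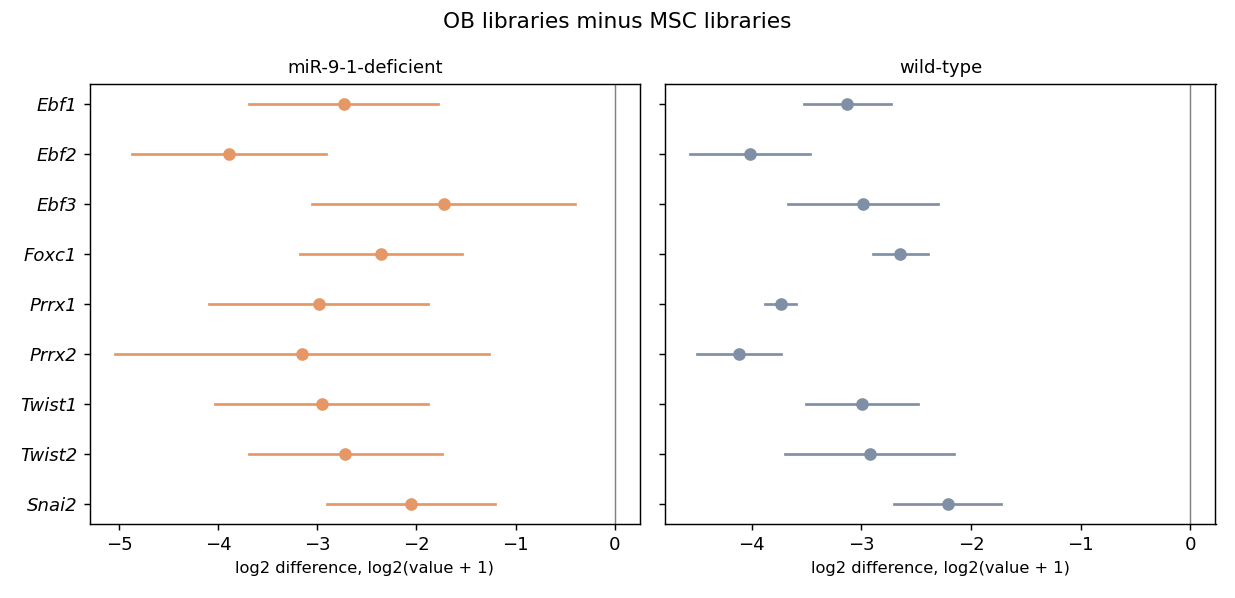
Log2 difference of each factor, OB minus MSC libraries, on the log2(value + 1) scale, in deficient (left) and wild-type mice (right). Filled circles passed an adjusted p under 0.05 and lines are 95% intervals; all 18 estimates are below 0, from −4.12 (Prrx2, wild-type) to −1.72 (Ebf3, deficient).

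Other transcription factors of these pathways were read from a list of 52, of which Id1, Id2, Id3 and Id4 were not analysed here. In MSC libraries 45 were tested between genotypes and 0 passed in limma, with 11 at an unadjusted p under 0.05, beside 22.8% of all genes tested. edgeR called 0 and DESeq2 called 5, beside 147 and 1199 of the 14964 genes tested. The smallest p-values were those of Shox2, a limb homeobox factor, at 498 in deficient and 787 in wild-type MSC libraries (−0.64 ± 0.16, limma adjusted p = 0.0718), and Zeb2, another factor of epithelial-mesenchymal transition, at 1937 and 2702 (−0.48 ± 0.12, limma adjusted p = 0.0769). In OB libraries 41 were tested and 0 passed in limma or edgeR and 0 of those with an adjusted p in DESeq2. By limma 3 had an unadjusted p under 0.05, beside 8.95% of all genes tested. Among the 3 was Meis2, a homeobox factor, at 98.4 in deficient and 36.8 in wild-type OB libraries (1.23 ± 0.43, limma adjusted p = 0.429).

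Between sorts most of the listed factors were lower in OB libraries, as the 9 were. In deficient libraries 35 of 43 tested passed as lower, beside 30.6% of all genes tested, and 3 as higher, with a median of −2.06. In wild-type libraries 40 of 44 passed as lower, beside 35.5% of all genes tested, and 2 as higher, with a median of −2.27. All 3 tested paralogs of the 9, Ebf4, Foxc2 and Snai1, passed as lower in both genotypes. Of 20 tested factors of other mesenchyme 19 were lower in deficient and all 20 in wild-type libraries, with Osr1, a mesenchymal zinc finger factor, at −3.85 ± 0.43 in deficient and −4.74 ± 0.52 in wild-type libraries and Meox2, a homeobox factor, at −3.70 ± 0.32 and −4.00 ± 0.24. Of the lineage factors of bone, fat and cartilage 6 of 10 were lower in deficient and 9 of 10 in wild-type libraries. Those passing as higher were all listed as partners of the 9 or of their families, of which 5 of 8 tested were lower in deficient and 6 of 9 in wild-type libraries. Meis1, also a regulator of blood stem cells, was higher in OB libraries by 1.84 ± 0.17 in deficient and 2.21 ± 0.09 in wild-type mice, and Tcf3, the E-protein partner of Twist, by 0.49 ± 0.16 in deficient mice.

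Within each family the paralogs were set against each other in every library, as ratios of normalized counts per kb of merged exons. Ebf1 stood at 5.79 to 14.8 times Ebf2 in deficient and 3.89 to 5.66 times in wild-type OB libraries, and at 2.93 to 3.83 times in deficient and 1.92 to 2.96 times in wild-type MSC libraries. The ranges of the genotypes were narrowly separate in OB (5.79 against 5.66) and narrowly overlapped in MSC (2.93 against 2.96). In deficient OB mouse H the ratio rested on 26 Ebf2 reads. The median ratio was higher in deficient libraries in both sorts, 6.80 against 4.39 in OB and 3.54 against 2.44 in MSC. No test was run on these ratios, and no share over other gene pairs was taken. The genotype ranges of Ebf1 to Ebf3, Prrx1 to Prrx2 and Twist1 to Twist2 overlapped in both sorts. Twist1 stood at 16.1 to 38.1 times Twist2 in deficient and 24.0 to 48.7 times in wild-type OB libraries. In MSC libraries it stood at 19.3 to 68.7 times in deficient and 27.7 to 45.2 times in wild-type ones. Prrx1 stood at 1.39 to 3.19 times Prrx2 in deficient and 1.37 to 2.16 times in wild-type OB libraries, and at 0.806 to 4.44 times in deficient and 1.08 to 1.55 times in wild-type MSC libraries. Prrx2 was thus above Prrx1 per kb in deficient MSC mouse F, 1 of the 16 libraries. Not divided by length, Prrx1 stood at 4.55 times Prrx2 in that library, and the isoforms present were not measured. Ebf1 was below Ebf3 in deficient OB mouse F alone, with a ratio of 0.600 per kb and 0.634 not divided by length.

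The genes whose pattern over the 16 libraries was nearest to each factor were found by the root mean square difference in log2(value + 1), each gene set to its own mean, among 12580 genes with a mean of at least 50. The nearest to Foxc1 were Fos (0.127), Ptprm (0.171) and Zcchc14 (0.179), and those nearest to Prrx1 were Antxr1 (0.191), Dpysl3 (0.234) and Olfml2b (0.309). The single nearest gene was Rarres2 for Ebf1 (0.233), Cav1 for Ebf2 (0.317), Ism1 for Ebf3 (0.317), Olfml3 for Twist1 (0.229) and Ptprf for Snai2 (0.223). Prrx2 and Twist2 had no gene as close, with C1qtnf2 at 0.411 and Tshz2 at 0.408. The nearest of the other 8 factors ranked 14 for Prrx2 (Prrx1, at 0.598) and 68 or lower for the others, among them Foxc1 for Ebf3 and Twist1 for Prrx1 (rank 82). These values describe likeness over libraries that share the difference between sorts.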

How the data were processed

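The libraries were made from poly(A) RNA of sorted cells, per the labels' protocols. The authors deposited normalized counts: each value is a signal equal to a gene's reads over the size factor of its library, and multiplying back gave whole reads for 100% of values within 0.01. DESeq2 1.24.0 and the build mm10 are named in the submitters' processing notes. For the aligner, counting program, strand setting and annotation: not given in the sources used here.

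In 5 comparisons the test was limma 3.58.1 (trend, R 4.3.3) on log2(normalized count + 1), for genes with 10 or more in at least 4 fitted libraries. A count of 0 allows up to 3 reads at 95% confidence, for counting error only. The alternatives were edgeR 4.0.16 and DESeq2 1.42.0 on recovered reads, another pseudocount, other filters and scalings, covariates, all 16 libraries, the mouse as a block, and leaving out each library.

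The members and lists were chosen with earlier results of these data known. Other genes were named per list (up to 4 passing per direction, or 2 of smallest p) and by likeness (3 per member); a part of these is given, chosen for length, and the paralogs were named as a group after their values were seen. Some genes of these lists are not reported here.

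Separate preparation of the libraries of a group is not stated, so p-values measure only the spread between these libraries. Animal numbers were taken to pair the sorts: deviations from group means of same-numbered libraries correlated with r from 0.0241 to 0.285 over 15556 genes, and 7 of 8 correlated best with their own number. Of simulated 2-fold changes, 50.6% were recovered for genotype in MSC and 50.0% in OB. Between sorts 45.5% were recovered in deficient and 38.5% in wild-type libraries, and 25.0% for the difference of effects. The simulated fits held 14470 to 15332 genes. These rates are for simulated counts and are not the power for the factors described here. Deficient OB libraries were more widely spread than wild-type ones for every factor, so the OB rate need not hold for these factors. In OB, Ebf3 had a log2 fold change of 1.00 ± 0.61 and did not pass (limma adjusted p = 0.651).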

Additional observations from a re-analysis of the deposited data

Results flagged for a closer look

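Each of the 9 factors was examined in each of the 4 groups for a library far from the other 3. The rule set the gap to the nearest library against the range of all 4. It used normalized counts, not the log2(value + 1) scale of the tests. This was so in 2 of 36 sets, and chance marks about 1 in 20. That rate is for unrelated sets, while the 9 factors were read in the same libraries. On the log2(value + 1) scale the rule was not run. There, in deficient OB, Ebf2 had 6.45 in mouse E beside 4.36 to 4.83. Prrx2 had 7.42 in mouse F beside 3.78 to 5.31. Ebf2 had 86.7 normalized counts in deficient OB mouse E, while the other deficient OB libraries had 19.5 to 27.4. Prrx2 had 170.0 normalized counts in deficient OB mouse F, while the other deficient OB libraries had 12.8 to 38.7. The same libraries were the highest of their group for the marrow stroma list, mouse F at 10.84 and mouse E at 10.12 in mean log2(normalized count + 1), beside 9.11 and 7.87 in mice G and H. The mural list had 9.33 in mouse E, where Ebf2 was high, and 7.42, 7.16 and 7.14 in mice F, G and H, with summed normalized counts of 20154 in mouse E and 4043 to 5500.4 in the others; no mural marker was at 0. The part of stromal or mural content in these values was not tested.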

How the results depend on the processing

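Of 853 values of the 9 factors under the alternatives, 796 kept direction and call (Twist2 in DESeq2 in OB, with no adjusted p, kept its direction only), 5 gained and 5 lost a call and 47 changed sign; every sign change was of a value that passed in neither. In MSC, genotype called 1 factor (Prrx1) with quantile normalization, array weights and DESeq2, and 0 to 2 without each library. The 159 genes called there became 1714 with array weights, 1199 in DESeq2, 2246 in a fit of all 16 libraries, 51 with Xist and 0 with the stroma, B-lineage or muscle list as a covariate, and 0 to 2261 without each library, 2261 being without deficient mouse F and 0 without wild-type mouse B. The 4 genes called in OB became 16 with quantile normalization, 75 with array weights, 194 in DESeq2, 217 and 2 with the stroma and B-lineage covariates, 24 with all 16 libraries, 88 without mice E and F, and 3 to 108 without each library, 108 being without deficient mouse H. For the difference of effects 2 became 0 with a pseudocount of 5, 4 with no filter, 1 with a filter of 50 or in edgeR, 140 with array weights, 127 in DESeq2 and 0 to 571 without each library. In MSC, Ebf2 became 0.0029 and Twist1 0.016 with array weights, Ebf3 0.14 and Twist1 0.15 with the stroma list, Twist1 0.27 with the B-lineage list and Twist2 −0.15 with the muscle list. Leaving out libraries gave −0.20 to 0.079 for Twist1 and −0.016 to 0.48 for Twist2. In OB, Twist1 became 0.016 with quantile normalization and 0.21 with the B-lineage list. edgeR gave Ebf2 0.25, Prrx1 0.22, Prrx2 0.14 and Twist1 0.22, and DESeq2 gave 0.24, 0.22, 0.13 and 0.22. Without mice E and F, Ebf1 was −0.057, Ebf3 −0.072 and Foxc1 −0.027. Leaving out libraries gave −0.50 to 0.20 for Ebf2, −0.61 to 0.32 for Prrx1, −1.17 to 0.039 for Prrx2, −0.43 to 0.46 for Twist1 and −0.45 to 0.15 for Snai2. For the difference, array weights gave Ebf2 −0.28 and Twist1 −0.048, and leaving out libraries −0.37 to 0.52 for Twist1, −0.070 to 0.44 for Twist2, −0.33 to 0.36 for Ebf2 and −0.12 to 0.48 for Snai2. The cause of these moves was not tested. Between sorts the 9 factors stayed lower throughout, with 8 or 9 called in deficient libraries and 9 in wild-type ones. With the mouse as a replicate block 8978 genes were called in deficient libraries, 10216 in wild-type ones and 3 for the difference, and calls of the 9 factors did not change. Of genes called in MSC, 47.2% were higher, against 59.2% in edgeR and 57.5% in DESeq2, and in OB 75.0%, against 56.3% with quantile normalization and 58.8% in DESeq2. Quantile normalization shifted the median of all genes between sorts by 0.12 in deficient and 0.16 in wild-type libraries. The skeletal muscle and Xist covariates and the fit without mice E and F were chosen after seeing the data. Depth limits Twist2 most, which had 12 to 38 reads in OB libraries and no adjusted p in DESeq2 for genotype there. Neither it nor Ebf2 was tested in OB at a filter of 50.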
